A study of Mus musculus with 2 samples.

Results

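The antizyme and polyamine metabolism genes are 10 genes that set how much putrescine, spermidine and spermine a cell holds. They were followed here in gastrocnemius, a calf muscle, from female B6CASTF1/J mice aged 2 months. These mice are the F1 hybrids of the C57BL/6J and CAST/EiJ strains, and no treatment or mutation is labelled. The study made 2 long-read RNA libraries, called replicate 1 (animal 3) and replicate 2 (animal 4), each from 2 µg of total RNA with spike-in RNAs added. Both animals belong to 1 group, so the 2 libraries have no replicate check beyond each other. The genes were selected by name: Oaz1, Oaz2, Azin1, Odc1, Amd1, Amd2, Srm, Sms, Smox and Sat1. The selection was made with results of these libraries known, and which values guided it is not recorded, so the tests below describe these 2 libraries and support nothing further. All 10 had reads in both libraries, out of 15371 annotated genes with a read in either. They held 2384 of 1349298 reads in replicate 1 and 2116 of 1359923 reads in replicate 2, which is 0.177% and 0.156% of the libraries. A transcript model is a set of exons to which the authors assigned reads, and 1 read is taken to stand for 1 cDNA molecule. The genes had 81 models in replicate 1 and 66 models in replicate 2.

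Ornithine decarboxylase, encoded by Odc1, makes putrescine and is the regulated entry step of the pathway. Antizymes bind it and hand it to the proteasome without ubiquitin, and antizyme inhibitors such as the product of Azin1 take antizyme out of that complex. Full-length antizyme is made only when the ribosome shifts by +1 base at a stop codon inside the message, and polyamines raise the rate of that shift, which closes a feedback loop. S-adenosylmethionine decarboxylase (Amd1, Amd2) supplies the aminopropyl groups that spermidine synthase (Srm) and spermine synthase (Sms) add. Spermine oxidase (Smox) and spermidine/spermine acetyltransferase (Sat1) run the chain backwards. In muscle, polyamines also plug inward rectifier potassium channels from the inside.

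The sequences that carry the antizyme result are the starts of the exons that hold the frameshift site, read from GENCODE M21 transcripts on mm10 in the 5′ to 3′ direction. The last capital marks the base that the annotation leaves out to join both reading frames. The capitals at the start mark bases that some reads leave out by using a later splice acceptor.
Oaz1, chr10:80828237-80828320 (plus strand): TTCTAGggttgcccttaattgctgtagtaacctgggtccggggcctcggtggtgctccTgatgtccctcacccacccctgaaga
Oaz2, chr9:65686196-65686297 (plus strand): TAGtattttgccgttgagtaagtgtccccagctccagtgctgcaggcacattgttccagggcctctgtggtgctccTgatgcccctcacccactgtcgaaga
The omitted T is the first base of an in-frame TGA stop codon in both genes. Read without a shift, the Oaz1 message codes 68 codons before that stop and the Oaz2 message codes 32. With the T left out, the frame runs on for 227 codons in Oaz1 and 189 codons in Oaz2. Both genes share a run of 15 identical bases across the site, gtggtgctccTgatg. Over 50 bases centred there, 41 bases were the same in both.

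Oaz1 (ENSMUSG00000035242.15, chr10:80826656-80829290), the broadly expressed antizyme, was the most abundant of the 10 genes, with 1466 reads in replicate 1 and 1360 reads in replicate 2. That is 1086 and 1000 CPM (reads scaled to a common library size), a mean of 1043 ± 61.1 CPM (SD, n = 2 libraries). In RNA from whole tissue, fewer cells of a type and less RNA per cell cannot be told apart. It ranked 61 among all genes in replicate 1 and 78 in replicate 2. The gene took 61.5% of the reads of the 10 genes in replicate 1 and 64.3% in replicate 2. Oaz2 (ENSMUSG00000040652.16, chr9:65668001-65690300), the second ubiquitous antizyme, had 478 reads in replicate 1 and 409 in replicate 2, or 354 and 301 CPM. There were 3.07 Oaz1 reads per Oaz2 read in replicate 1 and 3.33 in replicate 2. Neither antizyme differed between libraries past the threshold (Fisher's exact test with Benjamini-Hochberg adjustment, adjusted p = 0.194 for Oaz1 and 0.136 for Oaz2), and the CPM of Oaz1 lay above that of Oaz2 in both.

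No read was assigned to any of the 7 annotated transcripts of Oaz1 or the 7 of Oaz2. The authors' classes sort models into known transcripts, incomplete matches to a known transcript, new joins of known splice sites, models with a new splice site, and unspliced genomic models. In all annotated genes together, 65.9% of reads in replicate 1 and 65.3% in replicate 2 were on known transcripts. For Oaz1 the share was 0 of 1466 reads (95% Wilson interval 0 to 0.261%) in replicate 1 and 0 of 1360 reads (0 to 0.282%) in replicate 2. For Oaz2 it was 0 of 478 reads (0 to 0.797%) and 0 of 409 reads (0 to 0.930%). The other 8 genes together had 376 of 440 reads (85.5%) and 282 of 347 reads (81.3%) on known transcripts. Intervals of this kind cover counting error only, and not how reads were assigned to models and transcripts. Of 5025 genes that had 20 or more reads in both libraries, 74 (1.47%) had no read on a known transcript.

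**Figure D1:**
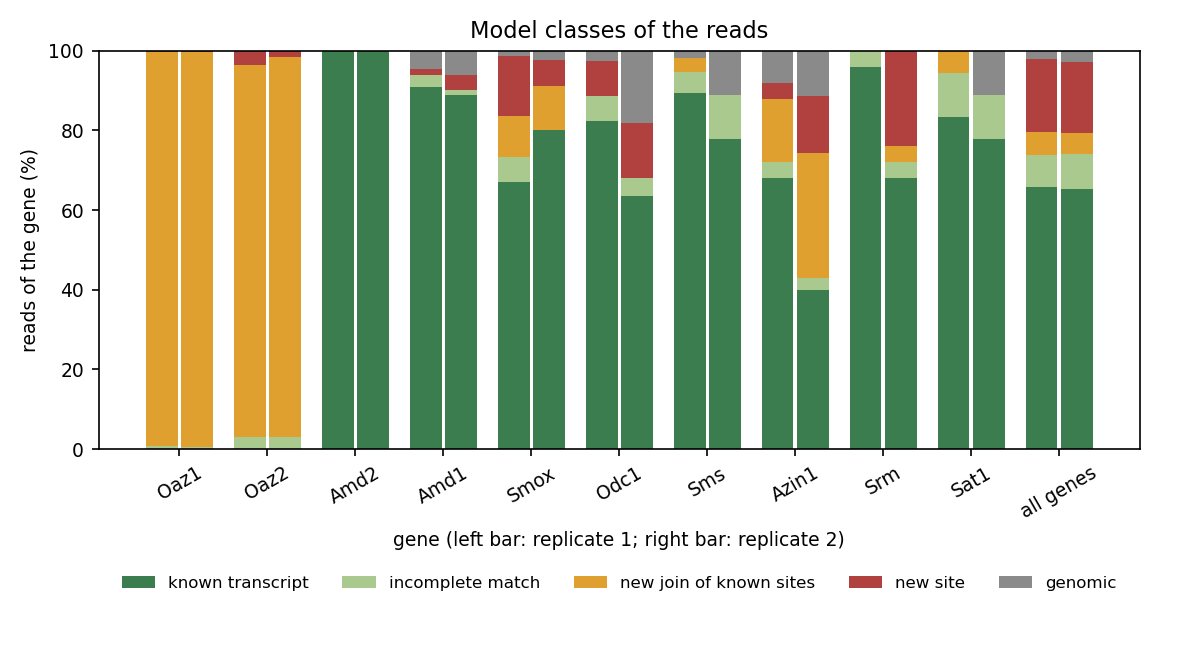
Share of each gene's reads (percent, y axis) in the authors' model classes for the 10 genes and for all annotated genes; left bars are replicate 1 and right bars replicate 2. Oaz1 and Oaz2 have no reads on known transcripts, whereas Amd2 has all its reads there.

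The exons of the models show 1 place where some of the annotated structures and the read structures part. GENCODE writes the frameshift as a tiny intron in 4 of the 7 annotated Oaz1 transcripts and 3 of the 7 of Oaz2. The other annotated transcripts hold no such intron and had no read either. How the read structures differ from those was not examined. In Oaz1 it is 1 base (chr10:80828295-80828295) in 3 transcripts and 4 bases (chr10:80828292-80828295) in 1. In Oaz2 it is 1 base (chr9:65686272-65686272) in 2 transcripts and 4 bases (chr9:65686269-65686272) in 1. In Oaz1, 1460 reads in replicate 1 and 1354 reads in replicate 2 ran through the site without a break. In Oaz2, 464 and 398 reads did so. No read of either gene held the gap. The remaining reads did not cover the site, and some of those of Oaz1 spliced over it. Across the genome, the annotation has 336 introns of at most 10 bases in 242 genes, 68 of them were crossed by a read, and none was held as an intron by any model in either library. The shortest intron in any model was 33 bases in each library, so the deposited models may be unable to record a gap of 1 or 4 bases, and the count of 0 sets no limit on such gaps.

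**Figure D2:**
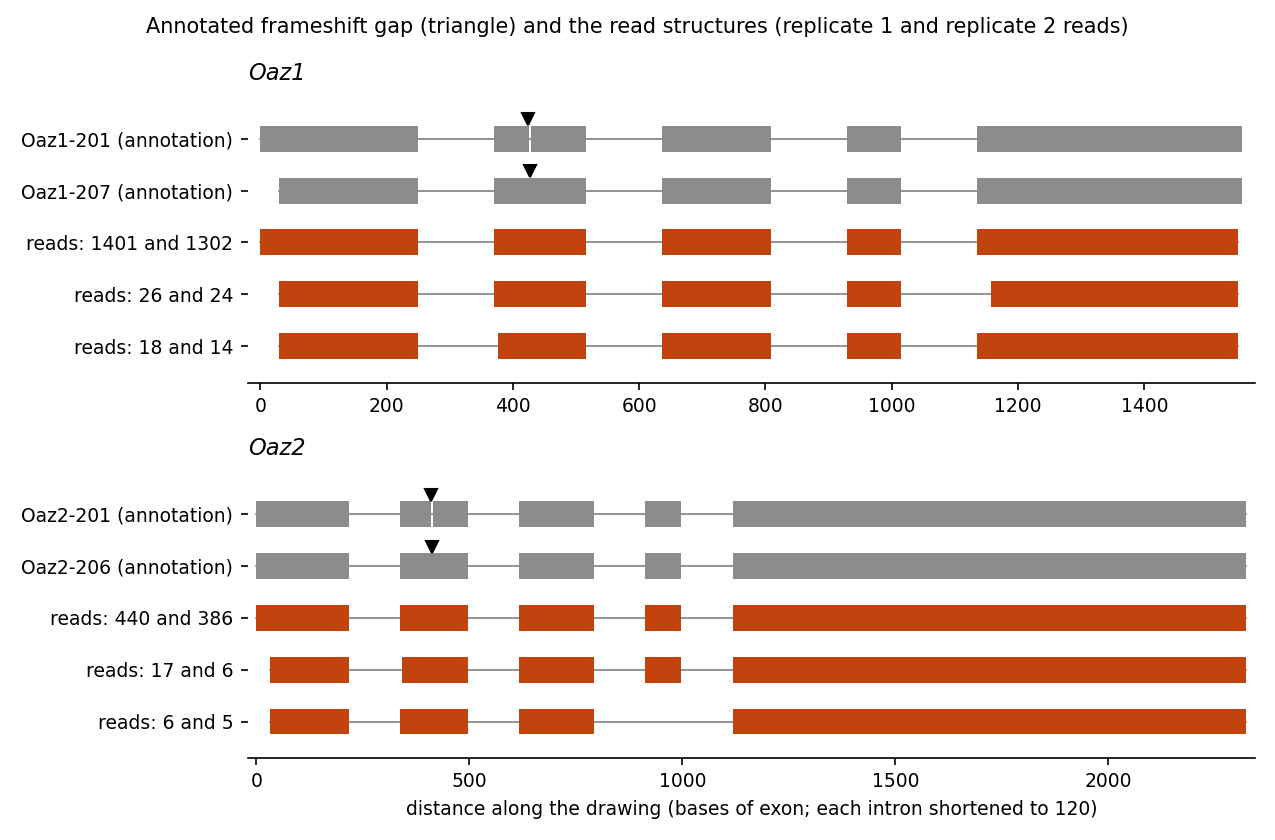
Exons (boxes, to scale along the x axis in bases) of 2 annotated transcripts and of the 3 spliced structures with most reads in Oaz1 and Oaz2, with introns shortened to a fixed length; triangles mark the annotated gap. The labels give reads in replicate 1 and replicate 2, and each of the 6 read structures runs through the gap.

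Apart from that site, antizyme messages were nearly uniform. The main Oaz1 structure, of 5 exons, held 1401 of 1466 reads in replicate 1 (95.6%) and 1302 of 1360 reads in replicate 2 (95.7%). The next used an acceptor 22 bases further into the last exon, with 26 reads in replicate 1 and 24 reads in replicate 2. The third left out the 6 bases TTCTAG at the start of the exon printed above, with 18 and 14 reads. Skipping of that whole exon was seen in 2 reads of replicate 1 and 3 reads of replicate 2. The main Oaz2 structure held 440 of 478 reads (92.1%) and 386 of 409 reads (94.4%). An unannotated acceptor that drops the 3 bases TAG of the printed Oaz2 exon had 17 reads in replicate 1 and 6 reads in replicate 2. Unspliced fragments held 8 and 11 reads, and an 86-base exon (chr9:65688821-65688906) was skipped in 6 and 5 reads. The share of the main structure did not differ between libraries past the threshold for either gene (two-sided Fisher's exact test, adjusted p = 1.00 for Oaz1 and 0.886 for Oaz2).

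A processed copy of Oaz1, the pseudogene Oaz1-ps, was looked at after its values were seen. It had 72 reads in each library (53.4 CPM in replicate 1 and 52.9 CPM in replicate 2) at chr17:17345456-17346140. Its 685 bases matched the Oaz1 message at 684 positions, and the 84 bases printed above, with the TGA, are identical in it. Reads of Oaz1 and Oaz1-ps are therefore hard to tell apart by sequence, and how the authors' alignment shared them was not tested.

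Odc1 (ENSMUSG00000011179.8, chr12:17544794-17551505) had 79 reads in replicate 1 and 22 reads in replicate 2, or 58.5 and 16.2 CPM. It was the gene of the 10 with the largest difference: higher in replicate 1 by a log2 ratio of 1.79 on the log2(CPM + 1) scale, a fold of 3.62 (95% counting interval 2.27 to 5.78). Fisher's exact test across all genes with at least 10 reads gave an adjusted p of 3.58e-07, comparing 2 libraries and not animals. The call was lost in edgeR's exact test with an assumed dispersion of 0.04 (adjusted p = 0.101). Counting spliced reads alone gave 76 reads in replicate 1 and 18 reads in replicate 2. The main annotated transcript, of 12 exons, held 65 of 79 reads (82.3%, interval 72.4 to 89.1%) and 14 of 22 reads (63.6%, 43.0 to 80.3%). That share did not pass the test (adjusted p = 0.711). Unspliced models held 3 of the reads in replicate 1 and 4 in replicate 2, and the next spliced structure, which drops 3 bases at an acceptor, held 2 and 1. There were 24.6 antizyme reads (Oaz1 and Oaz2) per Odc1 read in replicate 1 and 80.4 in replicate 2.

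Azin1 (ENSMUSG00000037458.15, chr15:38487427-38519266), the antizyme inhibitor and a relative of ornithine decarboxylase without its activity, had 25 reads in replicate 1 and 35 reads in replicate 2 (18.5 and 25.7 CPM). The log2 ratio of -0.45 was not called (adjusted p = 0.627). The main annotated transcript, of 12 exons, held 17 of 25 reads in replicate 1 (68.0%, interval 48.4 to 82.8%) and 14 of 35 reads in replicate 2 (40.0%, 25.6 to 56.4%). That share had an unadjusted p of 0.0396 and an adjusted p of 0.538 over 5025 genes. A second structure, which joins annotated sites in a new way, held 4 reads in each library, and unspliced models held 2 and 4. The 4 unspliced reads of replicate 2 were on a model recorded as 4 bases long, too short to be read as a message. They stay in the 35 reads and in the shares above. Part of the remaining spliced reads began in a different first exon, ahead of the coding sequence, with its donor at 1 of 2 sites. It was used by 1 of 23 spliced reads in replicate 1 (4.35%, 0.772 to 21%) and by 9 of 31 in replicate 2 (29.0%, 16.1 to 46.6%), a difference with no test. Azin1 also has a pair of acceptors 3 bases apart inside the coding sequence, shown with the optional bases in capitals, from the minus strand.
Azin1, chr15:38492330-38492359: TAGaaaaaaatgggagtgatgagccagcct
The later acceptor was used in 5 of 23 spanning reads in replicate 1 (21.7%) and 5 of 31 in replicate 2 (16.1%). Over the 10 genes, 19 alternative sites lay within 30 bases of the main site, and 8 of the 19 moved it by a multiple of 3 bases. Of the 19, 8 were seen in both libraries, 5 of them a multiple of 3 bases, 1 each in Oaz1, Oaz2, Azin1, Odc1 and Smox. Those of Odc1 and Smox rest on 2 reads in replicate 1 and 1 read in replicate 2 each, and no share over other genes was computed.

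Amd1 (ENSMUSG00000075232.5, chr10:40287458-40302186) and Amd2 (ENSMUSG00000063953.3, chr10:35708675-35711892) both code S-adenosylmethionine decarboxylase. Amd1 had 66 reads in replicate 1 and 82 reads in replicate 2 (48.9 and 60.3 CPM), with 60 and 73 of them on the main annotated transcript of 8 exons and 3 and 5 on unspliced models. A structure with an unannotated site held 0 reads in replicate 1 and 2 in replicate 2. Amd2, a gene of 1 exon, had 92 reads and 93 reads (68.2 and 68.4 CPM), all on its annotated transcript. Neither differed between libraries past the threshold (adjusted p = 0.600 for Amd1 and 1.00 for Amd2). The transcripts are 3204 and 3218 bases long and identical at 99.6% of aligned bases. Their coding sequences of 1002 bases differ at 1 base, in capitals below, which changes 1 residue.
Amd1, chr10:40290157-40290216 (minus strand): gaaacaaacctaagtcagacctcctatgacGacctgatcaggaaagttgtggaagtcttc
Amd2, chr10:35710735-35710794 (minus strand): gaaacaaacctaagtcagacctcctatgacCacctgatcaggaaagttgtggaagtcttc
The split of reads between the intronless Amd2 and the spliced Amd1 rests on so few bases that both levels are uncertain. Their sum was 158 reads (117 CPM) in replicate 1 and 175 reads (129 CPM) in replicate 2. The reference is C57BL/6J sequence, and whether CAST/EiJ alleles moved reads between these copies was not tested.

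Srm (ENSMUSG00000006442.10, chr4:148591503-148594993), which makes spermidine, had 24 reads in replicate 1 and 25 reads in replicate 2 (17.8 and 18.4 CPM). The 2 counts did not differ past the threshold (adjusted p = 1.00). Srm-201, of 7 exons, held 22 of 24 reads (91.7%) and 17 of 25 reads (68.0%). In replicate 1 no read reached past the annotated end of the gene (0 of 24, interval 0 to 13.8%), whereas 7 of 25 did in replicate 2 (28.0%, 14.3 to 47.6%). A partial match of 6 exons held 0 reads in replicate 1 and 1 in replicate 2. Of the 7 extended reads, 5 shared a last exon at chr4:148599614-148599817, which matches no annotated exon of another gene. The other 2 ran into exons of the neighbouring gene Masp2, a complement protease, 1 sharing 4 of its exons and 1 sharing 8. The test of the main structure was not passed (adjusted p = 0.689), and the extended reads had no test of their own. Sms (ENSMUSG00000071708.11, chrX:157443855-157492287), which makes spermine, had 57 reads in replicate 1 and 36 reads in replicate 2 (42.2 and 26.5 CPM). Its log2 ratio of 0.65 was not called (adjusted p = 0.202). Sms-201, of 11 exons, held 49 of 57 reads and 28 of 36 reads, a partial match of 6 exons held 2 and 3, and unspliced models held 1 and 4. Of the 4 unspliced reads in replicate 2, 1 was on a model recorded as 1 base long.

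Smox (ENSMUSG00000027333.18, chr2:131491496-131525922) had 79 reads in replicate 1 and 45 reads in replicate 2, or 58.5 and 33.1 CPM. It was higher in replicate 1 by a log2 ratio of 0.80, a fold of 1.77 (interval 1.23 to 2.55), with an adjusted p of 0.0325. The call was lost when no filter on low reads was used (adjusted p = 0.0534) and when reads on known transcripts alone were counted (adjusted p = 0.444). It was also lost when a spread between animals was assumed in edgeR's exact test (adjusted p = 0.329 at a dispersion of 0.01 and 1.00 at 0.04). It had the most structures of the 10 genes, 26, 9 of them in both libraries and 15 with 1 read in all. The main form Smox-201 held 42 of 79 reads (53.2%, interval 42.3 to 63.8%) and 28 of 45 reads (62.2%, 47.6 to 74.9%), a mean of 57.7 ± 6.40% (SD, n = 2).

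The Smox variants with most reads fell in 3 places. A first exon of 440 bases inside the first intron of Smox-201 (chr2:131506602-131507041) matches no annotated transcript and lies ahead of the coding start. It began 11 of 78 spliced reads in replicate 1 (14.1%, 8.06 to 23.5%) and 5 of 44 in replicate 2 (11.4%, 4.95 to 24.0%). The second place is the largest coding exon, of 760 bases (chr2:131520412-131521171). Smox-203 removes a 408-base intron from it, seen in 1 of 75 spanning reads in replicate 1 and 4 of 44 in replicate 2, and leaves 419 codons. The junction of Smox-202, which skips the whole exon, was in 4 of 75 and 1 of 44 spanning reads. The third is a 90-base exon near the end of the gene, carried by Smox-207, which adds 30 codons in frame to the 555 of Smox-201.
Smox, chr2:131524244-131524333 (plus strand): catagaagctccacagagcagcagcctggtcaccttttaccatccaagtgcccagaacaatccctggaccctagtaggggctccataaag
The exon was included in 6 of 75 informative reads in replicate 1 (8.0%, 3.72 to 16.4%) and 4 of 44 in replicate 2 (9.09%, 3.59 to 21.2%). Another 2 reads of replicate 1 and 0 of replicate 2 held an 85-base form from a later acceptor. Its length is not a multiple of 3 bases, and these reads were counted neither as including nor as skipping the exon. Inclusion of the 90-base exon did not differ past the threshold (Fisher's exact test, adjusted p = 1.00). Of the exons of the 10 genes, this 1 was deep and variable enough to be among the 1971 alternative exons tested, of which 8 (0.406%) were called.

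**Figure D3:**
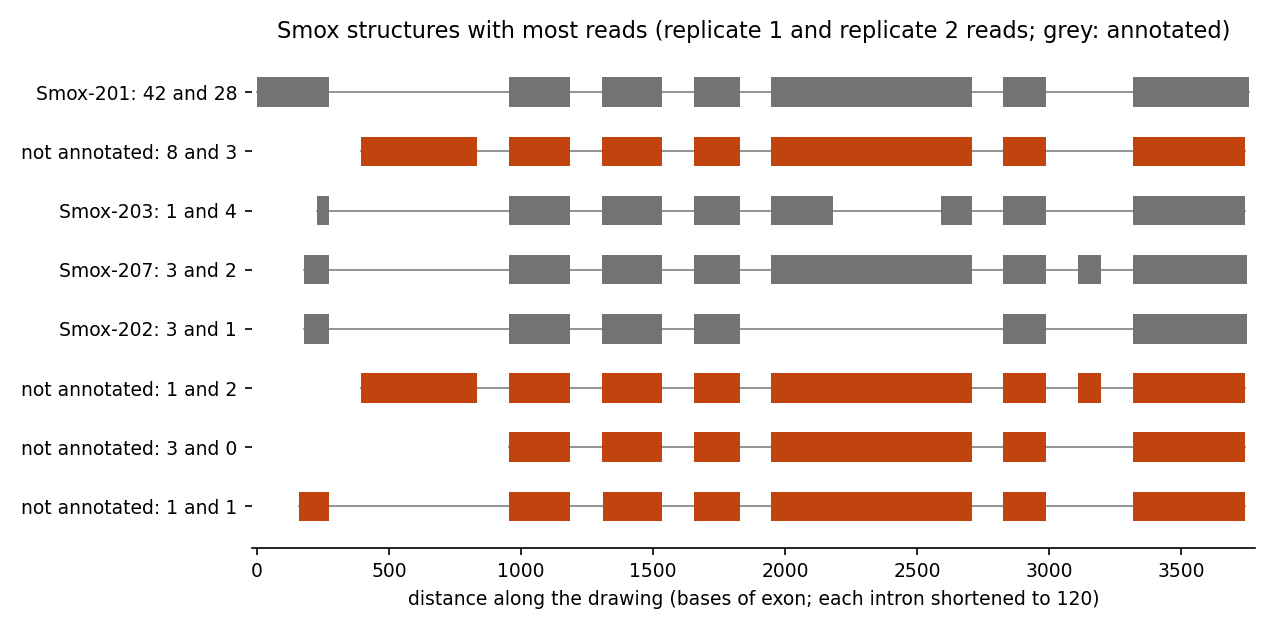
Exons (boxes, to scale along the x axis in bases, introns shortened to a fixed length) of the 8 spliced Smox structures with most reads; grey structures are annotated. The labels give reads in replicate 1 and replicate 2, from 42 and 28 for Smox-201 down to 1 and 1.

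Sat1 (ENSMUSG00000025283.15, chrX:155213132-155216449), which acetylates spermidine and spermine for export or oxidation, had the fewest reads of the 10 genes, with 18 reads in replicate 1 and 9 reads in replicate 2 (13.3 and 6.62 CPM). The fold of 2.02 had an interval of 0.924 to 4.40 and was not called (adjusted p = 0.378). The main annotated transcript, of 6 exons, held 14 of 18 reads and 6 of 9 reads, a partial match of 3 exons held 2 and 0, and each other structure had at most 1 read in a library. A 110-base exon (chrX:155215121-155215230), carried by a transcript annotated as leading to nonsense-mediated decay, was included in 2 of 16 informative reads in replicate 1 (12.5%, 3.50 to 36%) and 2 of 8 in replicate 2 (25%, 7.15 to 59.1%). Its first 30 bases hold the stop codon, in capitals, that ends the reading frame after 71 codons.
Sat1, chrX:155215201-155215230 (minus strand): gttacagtctcTAGcttcgccatgtacatg
The main transcript codes 171 codons. Inclusion of this exon is known in mouse cells as a way of limiting Sat1 protein when polyamines are low. Sat1 had too few reads in replicate 2 for the tests of structure.

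**Figure D4:**
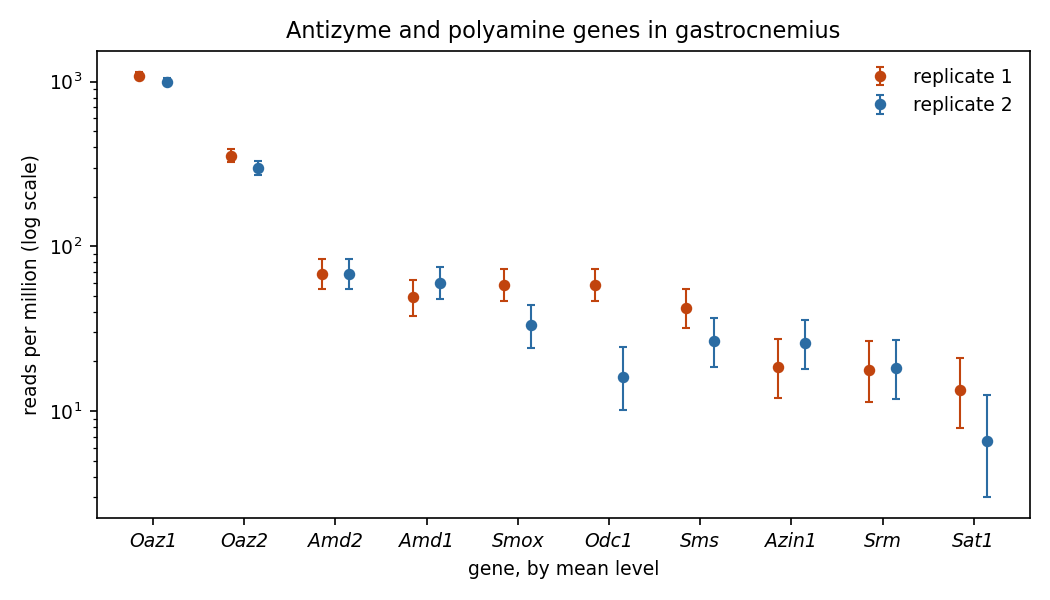
CPM (log scale, y axis) of the 10 genes in replicate 1 and replicate 2; bars are exact 95% Poisson intervals of the read counts. Oaz1 and Oaz2 lie above the other genes, and Odc1 shows the widest gap between libraries.

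Taking 1 read as 1 cDNA molecule, levels of different genes were set side by side as mean CPM. Whether the length of a cDNA affected its chance of being read was not tested. The main models ran from 1069 bases in Oaz1 to 4871 bases in Azin1. The order ran from Oaz1 (1043 CPM) and Oaz2 (328) through Amd2 (68.3), Amd1 (54.6), Smox (45.8) and Odc1 (37.4). Sms (34.4), Azin1 (22.1), Srm (18.1) and Sat1 (9.98) followed. Dividing by the length of each gene's main model, which counts of molecules free of length effects would not need, changed part of the order. It then ran from Oaz1 (976 CPM per kilobase) and Oaz2 (178) through Amd2 (21.2), Smox (20.2), Amd1 (17.0) and Odc1 (16.9). After these came Srm (13.5), Sms (9.24), Sat1 (8.59) and Azin1 (4.54). Oaz1 and Oaz2 stood apart from their neighbours in both libraries. In CPM, from Amd1 to Sms each gene's range over the 2 libraries overlapped that of the next. Per kilobase, so did the ranges from Amd2 to Srm and those of Sms and Sat1. A range of 2 values is no test between genes, and no order is read among neighbours with overlapping ranges. The place of Amd2 above Amd1 rests on the uncertain split of their reads. Among the genes whose CPM lay nearest to Oaz1 in both libraries, by distance on the log2 scale over 12265 genes with reads in both, were Mdh2, Idh3a, Sdha and Gnas, at distances of 0.128 to 0.167. With 2 libraries this is a likeness of level only.

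In the test across genes, all 10 passed the minimum of 10 reads and 2 were called, Odc1 and Smox, both higher in replicate 1. Over all 9341 genes tested, 730 (7.82%) were called, 333 (3.56%) of them higher and 397 (4.25%) lower in replicate 1. No reading is drawn from the count of 2, since the genes were chosen with results known. The median log2 ratio was 0.18 over the 10 genes and 0.01 over all genes tested. For the main structure, 9 of the 10 genes had at least 20 reads in each library and 0 were called, against 83 of 5025 genes (1.65%). Without adjustment, 1 of the 9, Azin1, had a p under 0.05.

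**Figure D5:**
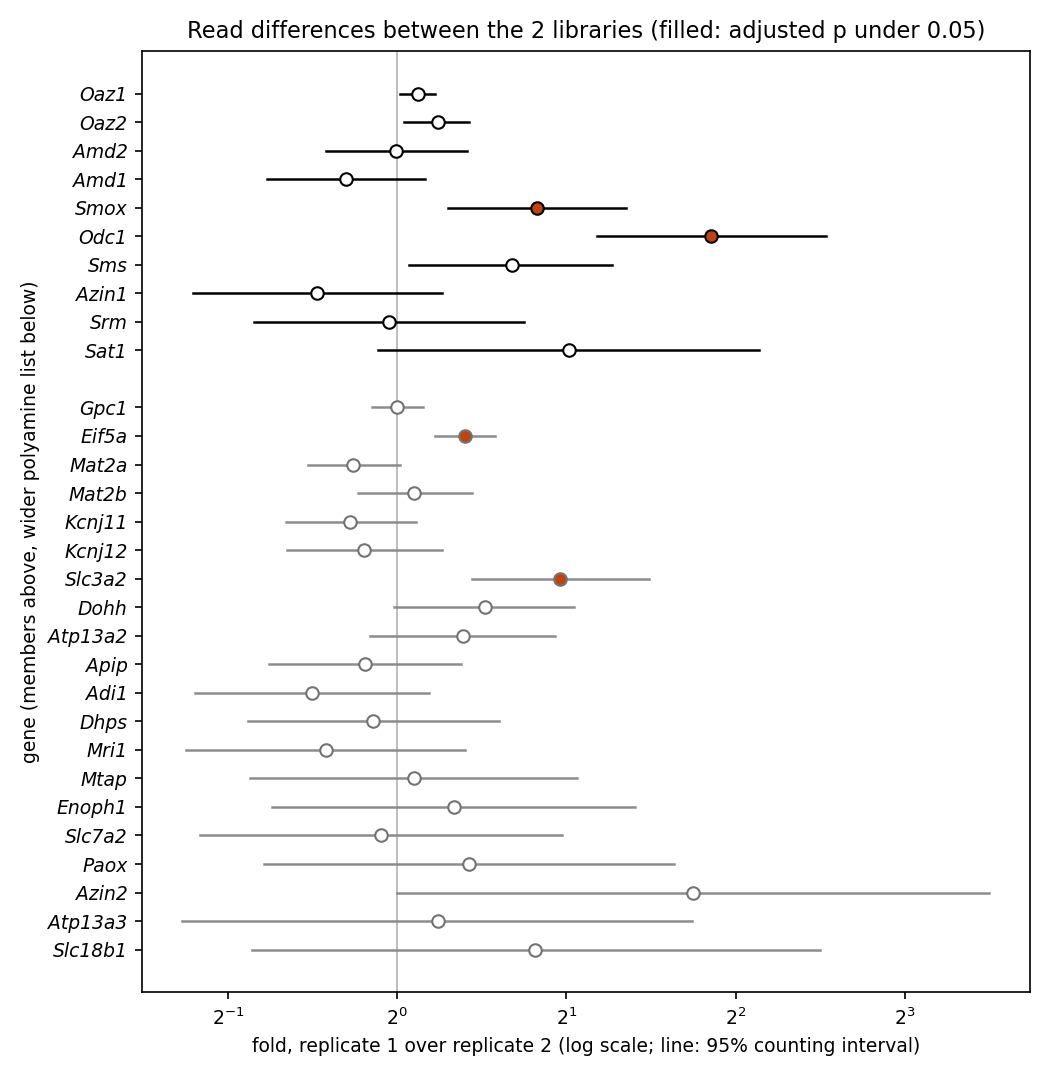
Fold of replicate 1 over replicate 2 (log scale, x axis) for the 10 genes (above) and the 20 tested genes of the wider polyamine list (below), with 95% counting intervals as lines. Filled points passed an adjusted p of 0.05: Smox, Odc1, Eif5a and Slc3a2, all higher in replicate 1.

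Of 33 other genes of the pathway, 25 had a read, 20 were tested and 2 were called, both higher in replicate 1, with a median log2 ratio of 0.10. The share called over all genes tested was 7.82%, so 2 of 20 is near the background and nothing is read from these counts. In hypusine formation, the conversion of a lysine on eIF5A with spermidine as donor, 1 of 3 tested genes was called. Eif5a, which codes the modified factor, had 617 reads in replicate 1 and 472 reads in replicate 2, a fold of 1.32 (adjusted p = 2.20e-04). Dohh, its hydroxylase, had 68 and 48 reads and was not called (adjusted p = 0.315). In polyamine transport, 1 of 5 tested genes was called. Slc3a2, a heavy chain of amino acid transporters that has been tied to polyamine export, had 85 reads in replicate 1 and 44 reads in replicate 2, a fold of 1.95 (adjusted p = 0.00634). Gpc1, a heparan sulphate proteoglycan linked to polyamine uptake, had the most reads of that list, with 736 and 743 reads. Neither call held in edgeR's exact test with an assumed dispersion of 0.01 (adjusted p = 0.624 for Eif5a and 0.166 for Slc3a2).

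None of the 5 tested genes that salvage methionine from the by-product methylthioadenosine was called. Those with most reads were Apip, with 46 reads in replicate 1 and 53 in replicate 2, and Adi1, with 28 and 40. In precursor supply, 3 of 9 genes were tested and 0 called. Mat2a and Mat2b, subunits of the S-adenosylmethionine synthetase found outside liver, had 150 and 108 CPM in replicate 1, against 180 and 101 CPM in replicate 2. Arg1, Arg2 and Otc, which make or use ornithine, had no read in either library, which allows up to 3 reads each. Of the inward rectifier channels, Kcnj11 had 100 and 122 reads and Kcnj12 had 71 and 82 reads, and neither was called. Of the paralogues and genes of acetylated polyamines, Paox had 12 and 9 reads and Azin2 had 10 and 3 reads, neither of them called, and Oaz3, the testis antizyme, had no read.

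The libraries also differed in their cell type markers. The muscle markers were high in both, led by Atp2a1 with 201493 reads in replicate 1 and 194599 reads in replicate 2, and Acta1 with 74992 and 68399. Of 6 tested, 3 were called higher and 3 lower in replicate 1, with sums of 277003 and 274122 CPM. Among slow-fibre markers, 10 of 10 were lower in replicate 1, with a summed level of 1408 CPM against 9316 CPM in replicate 2, and Myh7 had 422 reads against 4414, Tnnt1 307 against 2599. Adipocyte markers were higher in replicate 1 for 8 of 9 tested genes, with sums of 1268 and 178 CPM, led by Cfd with 1058 reads against 73 and Fabp4 with 169 against 54. Retn was at 0 in replicate 2 and Cidea at 0 in replicate 1. Nerve and Schwann cell markers were higher in replicate 1 for 6 of 7 tested genes, with sums of 684 and 98.5 CPM, led by Pmp22 with 395 reads against 84 and Mbp with 245 against 20. Of the endothelial markers 1 of 7 was higher in replicate 1 (Cav1, 151 and 96 reads), and Tie1 had 25 and 34 reads, with sums of 213 and 163 CPM. Of the tested macrophage markers 1 of 4 was higher in replicate 1 (Lyz2, 70 and 34 reads), and Cd74 had 40 and 20 reads, with sums of 114 and 70.6 CPM and Ptprc at 0 in replicate 1. Of the red blood cell markers 0 of 4 was called, with Hba-a1 at 86 and 106 reads, Hbb-bs at 33 and 47, sums of 107 and 124 CPM, Slc4a1 at 0 in both and Alas2 at 0 in replicate 2. The part of these tissue differences in the higher Odc1, Smox, Eif5a and Slc3a2 reads of replicate 1 was not tested.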

How the data were processed

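The deposited tables hold raw counts of long reads per transcript model, 1 table per library, and the deposited transcript files hold each model's exons on mm10 with the GENCODE M21 annotation, per the file headers and the deposited notes. Models outside the annotation carry the source name TALON, per the file headers. The authors made them from filtered alignments, per the deposited notes, and no source used here names the aligner or the read filters. Counts were summed per gene over all models and scaled to the library total (1349298 reads in replicate 1, 1359923 in replicate 2). No model was left out for its length. In replicate 2 this kept models of 4 bases in Azin1, 1 base in Sms and 27 bases in Smox. Genes with 10 or more reads over both libraries were compared with Fisher's exact test (two-sided), and p-values were adjusted by Benjamini-Hochberg over 9341 genes at a threshold of 0.05. This compares 2 libraries, and the spread between animals is not estimated. The labels give both animals 1 donor record, so how far the libraries are independent is uncertain. Spike-in RNAs counted in the totals and not as genes. Main structures were tested where a gene had 20 or more reads in both libraries, and internal exons with at least 20 informative reads in each library and a pooled inclusion of 5 to 95%. Shares carry 95% Wilson intervals, and a count of 0 allows up to 3 reads. Folds use CPM, and log2 ratios a pseudocount of 1 CPM. Sequences came from the GENCODE transcripts of the same release and were aligned with Biopython 1.88. Alternatives included edgeR 4.0.16 with set dispersions and DESeq2 1.42.0 size factors. The tests were also run on simulated counts that held no spread between animals, so those runs say nothing about how calls hold across animals. The members and lists were chosen with earlier results of these data known. The text names all 10 members, the called and the 2 most abundant genes of each wider list, the 2 most abundant markers, each member's 3 structures with most reads and any structure with 10 percent or more of its reads, and the 5 genes nearest Oaz1, except for items not reported here, plus genes chosen after their values were seen (Oaz1-ps, Masp2 and the genes at 0).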

Additional observations from a re-analysis of the deposited data

How the results depend on the processing

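Of the 2 called members, Odc1 passed under 9 of 10 alternatives (adjusted p 3.15e-08 to 0.101) and Smox under 6 of 10 (0.0200 to 1.00); Eif5a and Slc3a2 each passed under 8 of 10. The spread between animals limits most, since it is set and not measured: with an edgeR dispersion of 0.01, 173 genes were called in all, 1 member (Odc1) and 0 genes of the wider list, and with 0.04, 50 genes, 0 members and 0 genes of the wider list. With no filter on low reads, or with known transcripts only, 1 member was called, Odc1. No direction reversed among the called genes under the alternatives run. Leaving out models with 1 read moved the share of Smox-201 to 70.3%, and single libraries gave 53.2% to 62.2%. Reads through the antizyme site numbered 1752 to 1924 in single libraries, and the share of the 10 genes' pooled reads on known transcripts, which the antizymes with none pull down, was 13.3% to 15.8%. No paired analysis was possible because there is 1 group. The low reads of Azin1, Srm and Sat1 leave wide intervals. An alternative added after seeing the data, leaving genomic models out, gave 25.2 antizyme reads per Odc1 read in replicate 1 and 98.2 in replicate 2.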
